A study of Homo sapiens with 4 samples.

Results

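The genes described here are the alpha and beta globin cluster genes, which encode the protein chains of haemoglobin. They were chosen by name, as the 10 genes HBZ, HBM, HBA2, HBA1 and HBQ1 of the alpha cluster and HBE1, HBG2, HBG1, HBD and HBB of the beta cluster. Rows for 9 of the 10 were found among the 32673 genes of the expression table, and HBM, the mu globin gene, was not analysed here. The globin genes were picked because their expression was known to differ between the cell lines compared, so their differences are given as a description. No p-value is printed for them, and counts of those that passed the thresholds are no independent evidence.

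The cells were TF1-BA and TF1-BAR, both derived from the human erythroleukaemia line TF1, which depends on granulocyte-macrophage colony-stimulating factor (GM-CSF) for growth. TF1-BA cells carry the p210 form of BCR-ABL, the fusion kinase of chronic myeloid leukaemia, from a retrovirus, and are sensitive to imatinib, an inhibitor of that kinase. TF1-BAR cells are the same BCR-ABL cells after months of culture in imatinib, and are resistant to it. The RNA sequencing asked how the resistant line differs from the sensitive line in expression, with 2 libraries for each line.

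Both lines were grown with 2 ng/mL GM-CSF and 10% serum by the labels, where the paper's methods give more GM-CSF, and 10000000 cells were used for each replicate. By the labels, TF1-BAR cells were cultured with imatinib at 2 μM. It is not stated if RNA was taken in its presence, so exposure to imatinib and resistance to it cannot be told apart. The sample titles call the resistant libraries VECTOR, and a control vector, if there was one in these cells, would contribute to every difference. Each line is a single derivative, so any difference between these derivatives that is unrelated to imatinib is also included. Nothing states that the replicates were separate cultures, so the p-values below measure the spread between these libraries, which may be technical.

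Human globin genes are used in a set order during development. In the alpha cluster on chromosome 16, zeta globin (HBZ) serves the embryo, and the alpha globin pair (HBA2 and HBA1) takes over in the fetus and stays on in the adult, while theta globin (HBQ1) has no known place in haemoglobin. In the beta cluster on chromosome 11, epsilon globin (HBE1) serves the embryo, the gamma globin pair (HBG2 and HBG1) the fetus, and delta (HBD) and beta globin (HBB) the adult. Each cluster is driven by distant enhancers, and erythroid factors such as GATA1, TAL1 and KLF1 act on both. Erythroleukaemia lines commonly use embryonic and fetal globin genes.

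The libraries held between 15465497 and 18042299 fragments, and expression is given as FPKM, fragments scaled to transcript length and to the fragments sequenced. Fragment numbers given below were recovered from the FPKM values, which become whole numbers at the right library size and gene length. Over all listed genes these fragments add up to between 101.86% and 101.96% of the library sizes, an excess whose cause was not tested. Across the 15519 genes with a mean of at least 0.5 FPKM, 737 differed by 1 or more on the log2 scale with an adjusted p under 0.05 (limma), and these genes are referred to as called. Of these, 474 were higher and 263 lower in TF1-BAR, a split of 64.3% higher that became 51.5% after quantile normalization (359 higher and 338 lower). Fits that left out 1 library had a single library in 1 line and took all their spread from the other line. The number of calls in such fits cannot show which libraries the 737 calls rest on.

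The erythroid origin of the line was visible in both groups. Of 10 erythroid markers, the table held all 10 and their summed level was 324 to 326 FPKM in TF1-BA and 331 to 342 FPKM in TF1-BAR. SLC4A1, the anion exchanger of mature red cells, was near 0, at 0.165 to 0.283 FPKM. The lymphoid markers CD3E and CD2 and the monocyte and granulocyte markers CD14, S100A9 and ELANE were also at or near 0, each below 0.4 FPKM. Markers of this and other lineages moved with the cell line. Of the 9 erythroid markers tested, 4 were higher in TF1-BAR at an adjusted p under 0.05 and 0 lower, where 16.3% of all genes tested were higher, and 2 were called higher. All 3 progenitor markers were higher in TF1-BAR at an adjusted p under 0.05, from a summed 245 to 258 FPKM to 346 to 362 FPKM, as were 3 of 4 megakaryocyte markers with a row (136 to 145 against 189 to 211 FPKM) and 3 of 4 mast cell and basophil markers (31.0 to 32.1 against 65.2 to 71.5 FPKM). The same held for 2 of the 3 tested monocyte and granulocyte markers (44.8 to 45.0 against 66.8 to 77.9 FPKM for the whole list) and 0 of 1 tested lymphoid marker (1.30 to 1.36 against 1.01 to 1.02 FPKM). VWF, a megakaryocyte and endothelial marker, stayed below 0.2 FPKM. In bulk RNA, fewer cells that express a globin gene cannot be told apart from less globin RNA in each cell, and the part of these other lineages in the globin differences was not tested.

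The reference promoter of HBD is shown because HBD and HBB are adjacent adult genes that were both low in TF1-BAR, and because the delta promoter is known for lacking the CACCC box that the beta promoter uses to bind KLF1. RefSeq promoter entries were at hand for 2 of the 10 genes, HBD and HBM. The 250 bases before the HBD start lie at chr11:5234484-5234733 on the minus strand of GRCh38.p14, and capitals mark the matches to the searched motifs.
HBD: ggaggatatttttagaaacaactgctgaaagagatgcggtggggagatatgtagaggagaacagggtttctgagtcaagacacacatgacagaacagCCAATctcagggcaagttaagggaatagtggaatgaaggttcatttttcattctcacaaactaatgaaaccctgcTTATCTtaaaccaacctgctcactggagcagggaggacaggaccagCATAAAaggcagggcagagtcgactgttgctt
Positions are counted from the first transcribed base, at 5234483, with the base before it as −1. The first capital run matches CCAAT and begins at −153. CCAAT was held on either strand by 34.6% of 35116 promoters, read from 250 bases before to 50 bases after the start. The second run, at −78, is the reverse strand of AGATAA, which binds GATA factors and was found in 10.3% of promoters. The third, CATAAA at −32, stands at the usual place of a TATA box and was found in 10.6%. The motifs CACCC (59.9% of promoters), TGATAA (7.53%), TGACCA (10.7%) and TATAAA (11.5%) were not matched between 250 bases before and 50 bases after the start, on either strand. No motif listed here shares a base with another in this promoter. These matches describe the reference sequence, and binding was not measured.

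Of the 9 globin genes, 6 were called lower in TF1-BAR and 0 higher, where 1.69% of all genes tested were called lower and 3.05% higher. By the adjusted p alone 7 of the 9 were lower, as were 10.5% of all genes tested (26.9% in either direction). All 9 passed the filter of 0.5 FPKM, and HBZ, HBB and HBE1 passed it through their TF1-BA libraries, so no support is drawn from these counts. The median log2 fold change of the 9 was −2.29, against 0.066 over all genes tested. In 8 of the 9 both TF1-BAR libraries lay below both TF1-BA libraries, an order that 28.4% of all genes tested showed, and in HBG1 both lay above, as in 40.9% of all genes (69.3% in either direction). Ranked from the lowest log2 fold change of the 15519 genes in the main fit, HBB came 3rd, HBE1 5th, HBA2 8th, HBD 15th and HBA1 17th. HBZ came 146th, HBQ1 974th, HBG2 1863rd and HBG1 10190th. The genes closest to the fold change threshold were HBZ on the inside, at −1.31, and HBQ1 on the outside, at −0.61.

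**Figure D1:**
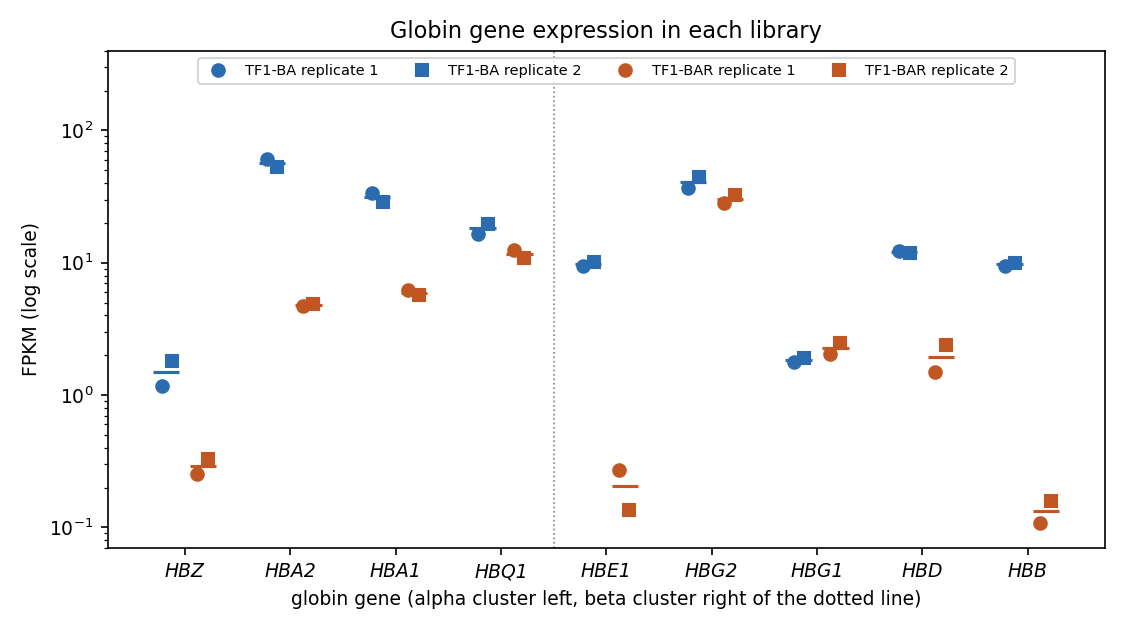
FPKM on a log scale (vertical axis) of the 9 globin genes (horizontal axis, alpha cluster to the left of the dotted line) in each library, with TF1-BA in blue and TF1-BAR in orange, replicate 1 as circles, replicate 2 as squares and group means as lines. HBB and HBE1 lie between 9.38 and 10.2 FPKM in TF1-BA and below 0.3 FPKM in TF1-BAR, whereas HBG2 stayed between 28.5 and 44.2 FPKM and HBG1 between 1.78 and 2.46 FPKM.

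In the alpha cluster the embryonic gene HBZ (ENSG00000130656, chr16:152687-154503, plus strand) was weakly expressed. Its level was 1.17 and 1.80 FPKM in TF1-BA and 0.252 and 0.330 FPKM in TF1-BAR. The TF1-BAR libraries were both low and did not overlap the TF1-BA libraries, but these levels rest on few fragments, namely 16 and 21 against 3 and 4. Per fragment sequenced, HBZ was 5.02 times higher in TF1-BA than in TF1-BAR (95% exact interval 2.21 to 13.3, counting error only). The log2 fold change was −1.31 ± 0.22 (SE, n = 2 per line) on the log2(FPKM + 0.5) scale, which understates the change of a gene as low as this one. HBZ was no longer called with a pseudocount of 1 FPKM or without the filter on low values. It was also not called when any 1 of the 4 libraries was left out. Such fits had a single library in 1 line, and the log2 fold change lay between −1.54 and −1.08.

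HBA2 (ENSG00000188536, chr16:172847-173710, plus strand), which usually provides most alpha globin, had the highest FPKM of the 9 genes in TF1-BA. It was at 60.6 and 53.1 FPKM there and at 4.74 and 4.87 FPKM in TF1-BAR, from 936 and 703 fragments against 64 and 67. The 2 libraries of each line lay close together and the lines were far apart, with a mean of 56.9 ± 5.31 FPKM (SD, n = 2) against 4.81 ± 0.0889 FPKM. TF1-BA was 11.9 times higher per fragment sequenced (95% exact interval 9.94 to 14.3), and the log2 fold change was −3.43 ± 0.09 (SE).

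HBA1 (ENSG00000206172, chr16:176680-177522, plus strand), the downstream copy that encodes the same alpha chain, was at 33.5 and 28.8 FPKM in TF1-BA and at 6.23 and 5.66 FPKM in TF1-BAR. It was also clearly separated between the lines, but by less than HBA2, at a ratio of 5.27 (95% exact interval 4.45 to 6.29) and a log2 fold change of −2.29 ± 0.10 (SE). As a result the order of the copies differed between the lines. HBA2 stood at 1.81 and 1.84 times HBA1 in the TF1-BA libraries and at 0.761 and 0.860 times HBA1 in the TF1-BAR libraries.

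The alpha globin copies are nearly identical, so how their shared reads were assigned can move RNA between them. Of the 428 windows of 150 bases in the reference transcript of HBA1, 331 (77.3%) also occur in HBA2. If each shared read was counted once, the sum of the pair does not depend on this assignment apart from the gene lengths used. Whether each was counted once was not tested. The sum was 94.1 and 81.9 FPKM in TF1-BA and 10.97 and 10.53 FPKM in TF1-BAR, which is 8.19 times higher in TF1-BA.

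HBQ1 (ENSG00000086506, chr16:180453-181181, plus strand), the theta globin gene at the end of the alpha cluster, differed least within this cluster. It was at 16.5 and 19.8 FPKM in TF1-BA and at 12.4 and 10.9 FPKM in TF1-BAR, so the lines did not overlap but lay close together. The ratio was 1.55 (95% exact interval 1.29 to 1.85) and the log2 fold change −0.61 ± 0.12 (SE), and HBQ1 was not called. In the TF1-BAR libraries theta globin had a higher FPKM than either alpha globin copy, whereas in TF1-BA it was lower than both.

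In the beta cluster the embryonic gene HBE1 (ENSG00000213931, chr11:5268345-5505617, minus strand) was moderately expressed in TF1-BA and close to the limit of detection in TF1-BAR. It was at 9.38 and 10.2 FPKM in TF1-BA, from 157 and 146 fragments, and at 0.273 and 0.134 FPKM in TF1-BAR, from 4 and 2 fragments. The ratio per fragment sequenced was 48.0, with a wide 95% exact interval of 21.8 to 132 that comes from the few TF1-BAR fragments. The log2 fold change was −3.87 ± 0.14 (SE), but it depends on the pseudocount, at −5.06 with 0.1 FPKM and −3.16 with 1 FPKM. The annotated span of HBE1 is far longer than the epsilon globin gene itself because it takes in long transcripts that start upstream, among the olfactory receptor genes.

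The fetal gene HBG2 (ENSG00000196565, chr11:5253190-5645789, minus strand), which encodes the G-gamma chain, had the highest FPKM of the 5 beta cluster globin genes in every library. It was at 36.7 and 44.2 FPKM in TF1-BA and at 28.5 and 32.2 FPKM in TF1-BAR, from 909 to 1387 fragments. The lower TF1-BA library and the higher TF1-BAR library were thus only a few FPKM apart. The ratio was 1.32 (95% exact interval 1.25 to 1.40) and the log2 fold change −0.41 ± 0.12 (SE), and HBG2 was not called. Its annotated span also includes long upstream transcripts, which lengthen the gene to 2027 bases in the FPKM calculation, against 586 bases in the MANE Select transcript.

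HBG1 (ENSG00000213934, chr11:5248083-5249892, minus strand), which encodes the A-gamma chain, was the only 1 of the 9 genes with a higher level in TF1-BAR. It was at 1.78 and 1.92 FPKM in TF1-BA and at 2.04 and 2.46 FPKM in TF1-BAR, from 24 to 32 fragments per library. This difference was within the counting error, since the ratio of 0.819 had a 95% exact interval of 0.550 to 1.22. The log2 fold change was 0.22 ± 0.13 (SE), and HBG1 was not called.

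The gamma globin copies also share sequence, with 163 of 438 windows of 150 bases of HBG1 (37.2%) found in HBG2. Summed, the pair was at 38.5 and 46.2 FPKM in TF1-BA and at 30.5 and 34.7 FPKM in TF1-BAR, which is 1.30 times higher in TF1-BA. Gamma globin RNA was thus present in both lines, with both TF1-BAR sums below both TF1-BA sums. No other pair of the 9 genes shares a window of this length.

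HBD (ENSG00000223609, chr11:5232678-5235370, minus strand), the minor adult chain whose promoter is shown above, was at 12.4 and 11.9 FPKM in TF1-BA and at 1.49 and 2.40 FPKM in TF1-BAR. The TF1-BA libraries agreed closely and the TF1-BAR libraries were both low, with 25 and 41 fragments against 237 and 195. The ratio was 6.22 (95% exact interval 4.79 to 8.19) and the log2 fold change −2.39 ± 0.19 (SE). Without TF1-BA replicate 1 or 2 the log2 fold change was −2.36 or −2.42. HBD was not called in these fits, which had a single TF1-BA library and took their spread from TF1-BAR alone.

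HBB (ENSG00000244734, chr11:5225464-5229395, minus strand), which encodes the adult beta chain, had the lowest log2 fold change of the 9 genes in the main fit, −4.01 ± 0.11 (SE). This value depends on the pseudocount, since it was −5.41 with 0.1 FPKM and −3.24 with 1 FPKM. With 1 FPKM the lowest was HBA2, at −3.31. HBB was at 9.40 and 10.0 FPKM in TF1-BA and at 0.108 and 0.158 FPKM in TF1-BAR. These levels came from 200 and 183 fragments against 2 and 3, so that adult beta globin was barely detected in the resistant line. The ratio of 72.8 is known only roughly, with a 95% exact interval of 30.9 to 225. In TF1-BA, HBB and HBE1 were at nearly the same level and below HBD and HBG2.

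The summed alpha cluster was 112 and 103 FPKM in TF1-BA and 23.7 and 21.8 FPKM in TF1-BAR, which is 4.74 times higher in TF1-BA. The summed beta cluster was 69.6 and 78.2 FPKM in TF1-BA and 32.4 and 37.4 FPKM in TF1-BAR, or 2.12 times higher. All 9 genes together made 181 and 182 FPKM in TF1-BA and 56.0 and 59.2 FPKM in TF1-BAR. Both clusters were therefore lower in both TF1-BAR libraries, and the alpha cluster by the larger factor.

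The make-up of the beta cluster shifted towards fetal globin. The share of HBG2 in the beta cluster sum was 52.7% and 56.5% in TF1-BA and 87.9% and 86.2% in TF1-BAR, while that of HBG1 was 2.56% and 2.45% against 6.31% and 6.59%. HBE1 made 13.47% and 13.001% of the sum in TF1-BA and 0.845% and 0.359% in TF1-BAR. HBD made 17.8% and 15.2% against 4.61% and 6.42%, and HBB made 13.5% and 12.8% against 0.333% and 0.423%. The shares of embryonic and adult genes were thus both smaller in TF1-BAR, and the FPKM of the gamma pair itself was not larger. A share depends on the other genes of the sum, so these percentages are not separate measurements from the levels above. The percentages also depend on the gene lengths used. Per MANE Select length, an alternative chosen after seeing the data, the mean shares in TF1-BA and TF1-BAR were 71.3% and 93.8% for HBG2, 1.30% and 2.77% for HBG1, 7.44% and 0.279% for HBE1, 10.7% and 2.95% for HBD, and 9.33% and 0.221% for HBB. The direction of each difference was the same with both lengths.

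In the alpha cluster the share of HBA2 was 54.2% and 51.3% in TF1-BA and 20.1% and 22.4% in TF1-BAR. The share of HBA1 was similar in the lines, at 30.0% and 27.8% against 26.3% and 26.0%, and that of the embryonic HBZ was below 2% in each library. HBQ1 made 14.8% and 19.1% of the sum in TF1-BA and 52.5% and 50.1% in TF1-BAR. Theta globin thus became the largest part of the alpha cluster sum at a level that was not higher than in TF1-BA.

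The balance of the clusters differed as well. The alpha cluster sum was 1.61 and 1.32 times the beta cluster sum in TF1-BA and 0.731 and 0.582 times in TF1-BAR. These ratios depend on the gene lengths used, above all that of HBG2. With the MANE Select lengths the alpha to beta ratio was 0.859 and 0.678 in TF1-BA and 0.277 and 0.224 in TF1-BAR. Which cluster was higher in TF1-BA therefore changed with the length, whereas the ratio was lower in TF1-BAR with both lengths. HBG2 also overtook HBA2 as the highest gene in TF1-BA with these lengths, at a mean of 140 against 84.5 FPKM.

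Genes around the clusters were examined to see whether the difference extended beyond the globin genes. Of 65 other genes of the table within 250 kb of the outermost globin gene on either side or between them, 22 were tested, 2 were called lower and 0 higher (limma), where 4.75% of all genes tested were called. At an adjusted p under 0.05 alone, 5 were higher and 4 lower, against 16.3% and 10.5% of all genes tested. Both called genes, HBBP1 and OR51B4, lie inside the beta cluster span.

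At the alpha cluster, 0 of 16 tested neighbours were called. The nearest gene on the lower side, 13827 bases away, is NPRL3, an mTORC1 pathway gene whose introns hold the enhancers of alpha globin. It was at 10.5 and 10.3 FPKM in TF1-BA and at 7.19 and 7.94 FPKM in TF1-BAR, a small difference that passed the adjusted p (log2 fold change −0.44 ± 0.08 SE, adjusted p = 0.022, limma). On the other side the nearest gene is the noncoding Z69706.1, 4567 bases away, which had 1 fragment in all 4 libraries. LUC7L, the next coding gene on that side and chosen after its values were seen, was higher in TF1-BAR (6.53 and 6.93 against 10.7 and 11.6 FPKM, log2 fold change 0.69 ± 0.08 SE, adjusted p = 0.009, limma). NPRL3 and LUC7L thus moved in different directions and by much less than HBA2 or HBA1. Both directions occurred on each side, as shown by 2 genes named after their values were seen. WASIR2, beyond NPRL3, rose by 0.78 (adjusted p = 0.014), and MRPL28, beyond LUC7L, fell by 0.33 (adjusted p = 0.023, limma). The median log2 fold change of the 16 was 0.06, against 0.12 over the 724 genes tested on chromosome 16.

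Inside the beta cluster, HBBP1, the pseudogene between the fetal and adult genes, fell in TF1-BAR, with a mean in TF1-BA that was 2.07 times higher. It was at 40.2 and 37.6 FPKM in TF1-BA and at 18.2 and 19.4 FPKM in TF1-BAR (log2 fold change −1.03 ± 0.07 SE, adjusted p = 0.004, limma). BGLT3, a noncoding RNA gene just downstream of HBG1, moved the other way, from 1.23 and 1.04 FPKM to 2.36 and 3.004 FPKM (log2 fold change 0.96 ± 0.15 SE, adjusted p = 0.015, limma), and was not called because its fold change was below the threshold. BGLT3 was called higher with a pseudocount of 0.1 FPKM (log2 fold change 1.17), with voom (1.21), after rescaling to TPM (1.01) and without TF1-BAR replicate 1 (1.103). It did not pass the adjusted p when any 1 of the other 3 libraries was left out (log2 fold change 0.81 to 1.04). Without the filter on low values it did not pass either (adjusted p = 0.065, limma). Between HBB at −4.01 and HBE1 at −3.87 in the main fit, the log2 fold changes therefore passed through values near 0 at the gamma genes and above 0 at BGLT3. The strand of the reads is not stated, so reads of overlapping transcripts cannot be separated.

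Upstream of HBE1 lie olfactory receptor genes, which cells outside the nose rarely use. OR51B4, a receptor gene in that stretch, had 24 and 27 fragments in TF1-BA and 0 and 2 in TF1-BAR (log2 fold change −1.88 ± 0.23 SE, adjusted p = 0.009, limma). It passed the filter on low values through TF1-BA alone, so its call is no support for a difference of the stretch. The 5 OR51B genes of the table together had 81 fragments in TF1-BA and 6 in TF1-BAR, although OR51B6 (0 against 3) and OR51B3P (0 against 1) went the other way. AC087380.1, a noncoding gene that spans the same stretch and was chosen after its values were seen, had 33 and 52 against 1 and 2 fragments. Other genes upstream of HBE1, also chosen after their values were seen, had more fragments in TF1-BAR, as UBQLNL with 24 against 37 and OLFM5P with 11 against 24 over both libraries of each line. These genes lie within the annotated span of HBG2, and the OR51B genes also within that of HBE1, so part of their fragments may come from long globin transcripts, which was not tested.

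Outside the annotated span of the beta cluster the nearest genes were AC104389.1 and TRIM5, an antiviral factor gene. AC104389.1, 18156 bases from HBB, had 2 and 2 against 0 and 0 fragments. TRIM5 lies 17768 bases beyond the annotated span of HBG2, and much farther from the epsilon globin gene. TRIM6 lies inside that span, and was named after its values were seen. It was higher in TF1-BAR (10.3 and 9.53 against 14.0 and 13.4 FPKM, log2 fold change 0.45 ± 0.08 SE, adjusted p = 0.018, limma). TRIM5 was at 13.2 and 15.7 FPKM in TF1-BA and at 13.1 and 14.7 FPKM in TF1-BAR, and its libraries overlapped (log2 fold change −0.05 ± 0.11 SE, adjusted p = 0.781, limma). HBBP1 and OR51B4 were not called without TF1-BA replicate 1 (log2 fold change −0.98 and −2.02) or without TF1-BA replicate 2 (−1.07 and −1.73). These fits had a single TF1-BA library. HBBP1 was also below the fold change threshold without TF1-BAR replicate 1 (log2 fold change −0.98) and after rescaling to TPM (−0.96). NPRL3 did not pass the adjusted p when any 1 library was left out (log2 fold change −0.50 to −0.37), nor without the filter on low values (adjusted p = 0.060, limma). LUC7L did not pass without TF1-BA replicate 1 or 2 (log2 fold change 0.65 and 0.73) or TF1-BAR replicate 2 (0.63).

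**Figure D2:**
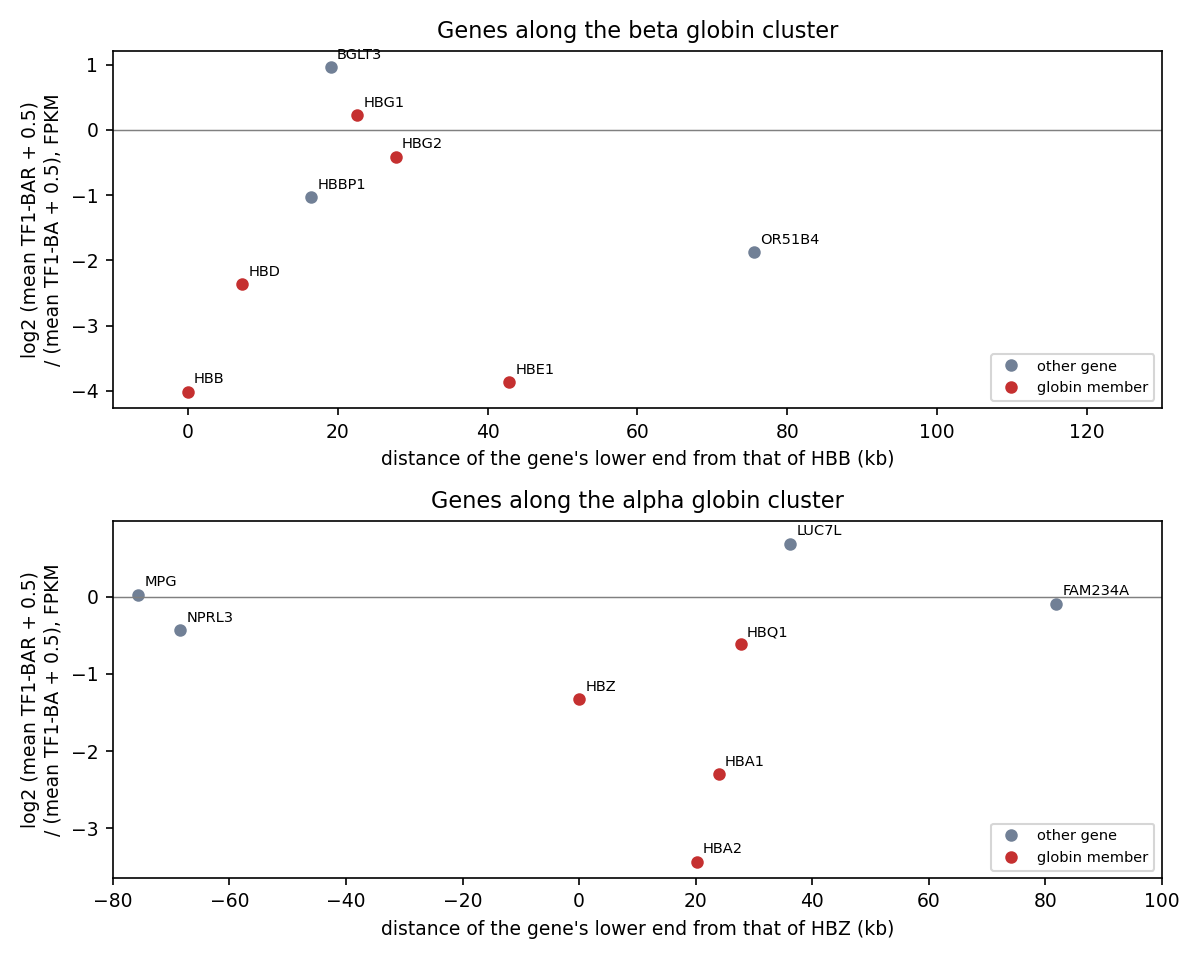
Log2 ratio of the mean FPKM + 0.5 in TF1-BAR over TF1-BA (vertical axes) of the globin genes (red) and the other genes with a mean of at least 0.5 FPKM in the stretch drawn (grey), by the distance in kb of their lower-coordinate end from that of HBB (top) or HBZ (bottom). In the beta cluster the ratio is near −4 at HBB and HBE1 and near 0 at the gamma genes, and beside the alpha cluster NPRL3 and LUC7L lie within 0.7 of 0.

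Factors that act on globin genes were examined next. Of 13 locus factors, all tested, 1 was called higher and 0 lower, where 3.05% and 1.69% of all genes tested were. At an adjusted p under 0.05 alone 4 were higher and 1 lower, against 16.3% and 10.5% of all genes tested. Their median log2 fold change was 0.05. The called gene was AHSP, whose product keeps free alpha chains in solution. It rose from 0.789 and 0.920 FPKM to 3.05 and 2.44 FPKM (log2 fold change 1.25 ± 0.15 SE, adjusted p = 0.009, limma), while alpha globin RNA itself was lower. AHSP rests on few fragments, 8 and 8 in TF1-BA against 27 and 22 in TF1-BAR. TAL1, an erythroid transcription factor, rose by 0.76 (adjusted p = 0.010), and EIF2AK1, the kinase that slows globin translation when haem is short, rose by 0.52 (adjusted p = 0.014, limma). LDB1, which bridges enhancers and globin promoters, fell by 0.38 on the log2 scale (adjusted p = 0.022, limma), and it lies on chromosome 10, where the median of 593 genes was −0.35.

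GATA1 and KLF1 were looked at by choice after their values were seen, since both bind globin promoters. GATA1 was at 75.4 and 74.7 FPKM in TF1-BA and at 65.9 and 70.6 FPKM in TF1-BAR (log2 fold change −0.14 ± 0.06 SE, adjusted p = 0.164, limma). KLF1, which HBB depends on, was at 57.8 and 64.7 FPKM against 45.4 and 51.1 FPKM (log2 fold change −0.34 ± 0.09 SE, adjusted p = 0.052, limma). Neither passed the test here, although both TF1-BAR libraries lay below both TF1-BA libraries for each gene. Over the alternatives the adjusted p of KLF1 ranged from 0.013 to 0.260 and that of GATA1 from 0.099 to 0.484 (limma).

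Regulators of the switch from fetal to adult globin were also examined. Of 27 such genes 25 were tested, 1 was called higher and 0 lower, and 6 were higher and 3 lower at an adjusted p under 0.05 alone, where 4.75% of all genes tested were called, 16.3% were higher and 10.5% lower by these measures. LIN28B, an RNA-binding protein of fetal blood cells known to keep gamma globin on, rose from 4.59 and 4.01 FPKM to 20.2 and 17.5 FPKM (log2 fold change 2.01 ± 0.11 SE, adjusted p = 0.003, limma). Its relative LIN28A was lower, from 0.996 and 1.37 FPKM to 0.364 and 0.357 FPKM (log2 fold change −0.96 ± 0.20 SE, adjusted p = 0.027, limma), and passed the filter on low values through TF1-BA alone. RCOR1, the scaffold of a gamma globin corepressor complex, fell from 78.1 and 74.0 FPKM to 38.2 and 38.1 FPKM (log2 fold change −0.98 ± 0.06 SE, adjusted p = 0.003, limma). BCL11A, the main repressor of gamma globin, rose from 1.07 and 1.03 FPKM to 2.34 and 2.30 FPKM (log2 fold change 0.86 ± 0.12 SE, adjusted p = 0.011, limma). The last 3 passed the adjusted p but not the fold change threshold. BCL11A and LIN28A also passed the fold change threshold with a pseudocount of 0.1 FPKM (1.07 and −1.46) and with voom (1.13 and −1.66), LIN28A did after quantile normalization (−1.11), and RCOR1 did with upper-quartile scaling (−1.01).

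Haem synthesis genes supply the group that globin chains bind. All 14 were tested, 1 was called higher and 1 lower, and 3 were higher and 4 lower at an adjusted p under 0.05 alone, with a median log2 fold change of 0.03. The shares over all genes tested were 4.75% called, and 16.3% higher and 10.5% lower by the adjusted p alone. ALAD, an early enzyme of the pathway, rose from 4.74 and 4.98 FPKM to 9.36 and 11.4 FPKM (log2 fold change 1.02 ± 0.12 SE, adjusted p = 0.008, limma). HMOX1, which breaks haem down, fell from 38.9 and 58.4 FPKM to 19.8 and 22.2 FPKM (log2 fold change −1.17 ± 0.20 SE, adjusted p = 0.019, limma), with a wide gap between its TF1-BA libraries. ABCB10, a mitochondrial transporter needed for haem synthesis, fell by 0.61 (adjusted p = 0.017), and FECH, the last enzyme of the pathway, fell by 0.54 on the log2 scale (adjusted p = 0.020, limma).

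Genes of erythroid maturation moved in both directions. Of 25, 23 were tested, 2 were called higher and 1 lower, and 11 were higher and 5 lower at an adjusted p under 0.05 alone, with a median log2 fold change of 0.30. Of all genes tested, 3.05% were called higher and 1.69% lower, and 16.3% were higher and 10.5% lower by the adjusted p alone. GYPB, a red cell surface protein, rose from 0.142 and 0.330 FPKM to 1.94 and 1.67 FPKM (log2 fold change 1.66 ± 0.20 SE, adjusted p = 0.010, limma), but it passed the filter on low values through TF1-BAR alone, and it has close copies in the genome, between which reads may have been assigned. ERMAP, an erythroid membrane protein, rose by 0.77 (adjusted p = 0.012, limma).

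Several calls in these lists were lost when 1 library was left out. Such fits took all their spread from the other line, so log2 fold changes are given. Without TF1-BA replicate 1 or 2, AHSP (1.18 and 1.32), ALAD (0.98 and 1.05) and GYPB (1.47 and 1.84) were not called. LIN28B was not called without TF1-BA replicate 2 (1.92) but was called in every other such fit. HMOX1 was not called without TF1-BA replicate 2 (−0.88) or without TF1-BAR replicate 1 or 2 (−1.08 and −1.25). GYPB was not called without TF1-BAR replicate 2 (1.74). The genes named above that passed the adjusted p alone were TAL1, EIF2AK1, LDB1, LIN28A, RCOR1, BCL11A, ABCB10, FECH and ERMAP. They kept their direction but did not pass it without TF1-BA replicate 1 or 2. Without TF1-BAR replicate 2, LIN28A, BCL11A, ABCB10, FECH and ERMAP did not pass either, nor did LIN28A without TF1-BAR replicate 1. With all libraries but without the filter on low values, HMOX1 was not called (adjusted p = 0.078, limma). EIF2AK1, LDB1, LIN28A, ABCB10, FECH and ERMAP did not pass the adjusted p under that setting (0.054 to 0.076, limma). ALAD lay close to the fold change threshold, with a log2 fold change of 0.88 without TF1-BAR replicate 2, 0.95 with a pseudocount of 1 FPKM, 0.96 after quantile normalization and 0.99 with upper-quartile scaling, and was not called under these settings either.

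Globins outside the clusters were hardly expressed. MB, the muscle oxygen store myoglobin, was listed at 0 in all 4 libraries, CYGB, the widely expressed cytoglobin, did not exceed 0.0219 FPKM, and ADGB, a globin of the testis, did not exceed 0.0665 FPKM. The differences among globins were therefore seen in the cluster genes and HBBP1.

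The genes whose pattern over the 4 libraries was most like that of the cluster sums were found among 7292 genes with a mean of at least 5 FPKM, as the root mean square difference of centred log2(FPKM + 0.5) values. For the alpha cluster they were THEMIS2, a signalling protein of blood cells (0.077), AKR1C2, a steroid reductase (0.129), and HERPUD1, a membrane protein of the endoplasmic reticulum stress response (0.135). THEMIS2 was at 25.8 and 25.5 FPKM in TF1-BA and at 6.05 and 5.24 FPKM in TF1-BAR. For the beta cluster they were C1orf228 (0.055), IL1A, the cytokine interleukin 1 alpha (0.058), and FLYWCH1 (0.061). With 4 libraries in 2 lines, likeness of this kind says little more than that the fold change was similar.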

How the data were processed

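The authors sequenced 2 RNA libraries from each of TF1-BA and TF1-BAR cells (NEBNext Ultra kit, paired-end reads). They mapped reads to GRCh38 with TopHat (2.0.13 by the submitters' processing notes) and ran Cufflinks and Cuffdiff 2.2.0 with default parameters, and the annotation release is not given in the sources used here. The deposited values are FPKM for 32673 genes in each library, and the authors tested differential expression with DESeq2.

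The globin genes, gene lists and tests were chosen with earlier results of these data known. Groups came from the labels, and columns were assigned to samples by their names. Because FPKM are not counts, log2(FPKM + 0.5) of genes with a mean of at least 0.5 FPKM was fitted by limma 3.58.1 (R 4.3.3, eBayes with trend), with Benjamini-Hochberg adjustment over all 15519 genes. Genes that differed by 1 or more on the log2 scale with an adjusted p under 0.05 were called. The script was tested on simulated data.

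Fragments were recovered by finding the library sizes (18042299 and 15465497 for TF1-BA, 15761642 and 16074303 for TF1-BAR) and gene lengths that turn every value of a gene into a whole number within 0.005 fragments. 14560 genes were whole at the GENCODE 44 exon length, 16293 at a fitted length and 1820 were at 0 in all libraries. Wrong library sizes were tried on 4284 genes that were whole at the GENCODE 44 length, and 0 stayed whole at that length. This check does not cover fitted lengths, which all globin genes but HBA1 have. For fitted genes, and for HBG1, whose length is 808 bases or a simple multiple or fraction of it, fragment numbers rest on the length chosen. Intervals of fragment ratios are exact at 95% and cover counting error only. Gene positions are those of the deposited table (GRCh38), and that of the promoter comes from the RefSeq table.

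By rule, the genes named were the globin genes, the nearest gene on each side of each cluster, called neighbours, the 4 genes of each list with the largest log2 fold change among those with an adjusted p under 0.05, called list genes, and the 3 genes most like each cluster sum. Some genes of the lists are counted but not reported here by name. Alternatives were other pseudocounts, filters and scalings, eBayes without trend, voom on recovered fragments, summed copies, a replicate block, leaving out each library and, chosen after seeing the data, MANE Select lengths.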

Additional observations from a re-analysis of the deposited data

How the results depend on the processing

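The log2 fold change kept its direction for each of the 9 globin genes under the alternatives tried, and HBA2, HBB and HBE1 were called in each of them. Its size moved most for genes near 0 in TF1-BAR, from −5.95 to −3.24 for HBB and from −5.43 to −3.16 for HBE1. The globin genes called numbered 5 to 7 under the alternatives that kept all libraries, where the main count was 6, and 4 to 5 when 1 library was left out. Over all genes, 737 calls became 487 with a pseudocount of 1 FPKM, 1142 with voom on recovered fragments, 4167 by the adjusted p alone and 42 to 783 without 1 library. Neighbouring genes called numbered 1 with a mean of at least 1 FPKM, 9 by the adjusted p alone and 0 to 2 without 1 library. Locus factors called numbered 5 by the adjusted p alone and 0 to 1 without 1 library. Switching regulators called numbered 3 with a pseudocount of 0.1 FPKM and with voom, 2 with upper-quartile scaling and quantile normalization, 9 by the adjusted p alone and 0 to 1 without 1 library. Haem synthesis genes called numbered 1 with a pseudocount of 1 FPKM, without the filter, and with upper-quartile scaling or quantile normalization, 7 by the adjusted p alone and 0 to 1 without 1 library. Erythroid maturation genes called numbered 16 by the adjusted p alone and 0 to 3 without 1 library. Per MANE Select length, chosen after seeing the data, the log2 ratio of TF1-BAR over TF1-BA was −2.42 for the alpha and −0.81 for the beta cluster sum. The log2 alpha to beta ratio then became −0.39 in TF1-BA, the reverse of 0.54, and −2.00 in TF1-BAR. The share of HBG2 in its sum became 71.3% in TF1-BA and 93.8% in TF1-BAR, and that of HBA2 56.5% and 25.7%. These values moved through the lengths alone, and the causes of the other movements were not tested.

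With the replicate numbers of the titles as a block, 755 genes were called (487 higher and 268 lower) and 6 globin genes. The deviations of same-numbered libraries correlated at only 0.065 over 15519 genes, and nothing states that the numbers mark a shared culture or day, so the libraries share only a number. Depth limits HBB, HBE1 and HBZ, which rest on 2 to 4 fragments per library in TF1-BAR.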
